A study of Arabidopsis thaliana with 12 samples.

Results

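The 59 genes described here are transcripts that were lower at high iron than at normal iron in each of 3 sets of samples of Arabidopsis thaliana. They were taken from 692 probes that stand for a single gene, on arrays of 3439 probes. All plants were wild type of the ecotype Columbia 0, a standard laboratory line. By their source names, the 6 control samples came from plants grown at normal iron and the 6 high iron samples from plants grown at high iron. No mutation or transgene is named for either group. The labels and files used here state neither tissue, age, iron dose nor duration, nor whether samples came from separate plants. By their numbers the samples form 3 sets in each group, samples 1 and 2, 3 and 4, and 5 and 6. A gene was taken when its averaged difference, high iron minus control, was below -0.3 on the log2 scale in all 3 sets, with arrays quantile normalized. Probes in the brightest 10 percent of control samples and 6 genes given by name were left out. Of 72 single-gene probes below the threshold, 11 were bright and 2 more were left out by name, which leaves the 59.

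Iron is needed in plastids and mitochondria for electron transport, haem and iron-sulphur clusters, and free iron in excess reacts with peroxide to give hydroxyl radicals. Most proteins of these organelles are encoded in the nucleus and imported. They include pentatricopeptide repeat proteins, which bind particular organelle RNAs, and enzymes that modify or trim the RNA of organelle ribosomes. Other members of the 59 belong to families of transcriptional regulators, kinases, proteases, transporters and enzymes. Roles are given from general knowledge of these families, because the gene table used names only 2 of the 59 by more than their locus, ETFQO and PRA1.B6. No role is given for 22 members.

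The difference itself chose the genes, so the values are a description and carry no test. Among all probes 9.92% were below -0.3 in all 3 sets, among single-gene probes 10.4%, and among those outside the brightest 10 percent 9.53%. In the opposite direction 12% of all probes were above 0.3 in all 3 sets. Over the 59 genes the median difference was -0.77, a ratio of 0.588, against 0.00 over all probes and 0.00 over the single-gene probes. The mean differences ran from -0.35 in AT1G29040 to -1.55 in AT5G38750, but 4 and 2 of their high iron values were at the lowest level that was set, which limits both sizes. With that level set lower, at the 1st in place of the 5th percentile of positive values, they were -1.96 and -3.11. The differences of 12 genes were below -1 in the mean, or of 15 with the lower level, and those of 24 genes were below -0.5 in every set. No gene was below -1 in every set (0 of 59). Each SE below is that of limma over the 6 averages of the sets, 3 per group, and describes spread only.

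The arrays themselves differed between the groups. The column medians of deposited intensities were 0.352 to 0.446 in high iron samples and 0.555 to 0.618 in control samples. High iron samples 3 and 4 held 278 and 271 values of 0, against 123 to 145 in the other 10 columns. Intensities are given after quantile normalization on a linear scale with arbitrary units and a lowest level of 0.106. Because RNA came from whole samples, fewer cells of a type and less RNA per cell cannot be told apart.

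In 40 of the 59 genes the 6 high iron values all lay below the 6 control values, a pattern that 8.32% of all probes showed. All 59 were lower in each of the 6 same-numbered pairs of samples, as were 18.3% of all probes. The rule already asks for a difference in each set, so these counts follow in part from it. The same holds for the counts by role group below, which were not tested against the 40 of the 59. By sets, the median difference of the genes was -0.67 in set 1, -0.74 in set 2 and -0.66 in set 3, where all probes had medians of 0.00, 0.02 and 0.00. Set 2 gave the largest difference for 27 genes, set 3 for 19 and set 1 for 13. The share of 45.8% with the largest difference in set 2 stood beside 51.3% over all 341 probes below the threshold.

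**Figure D1:**
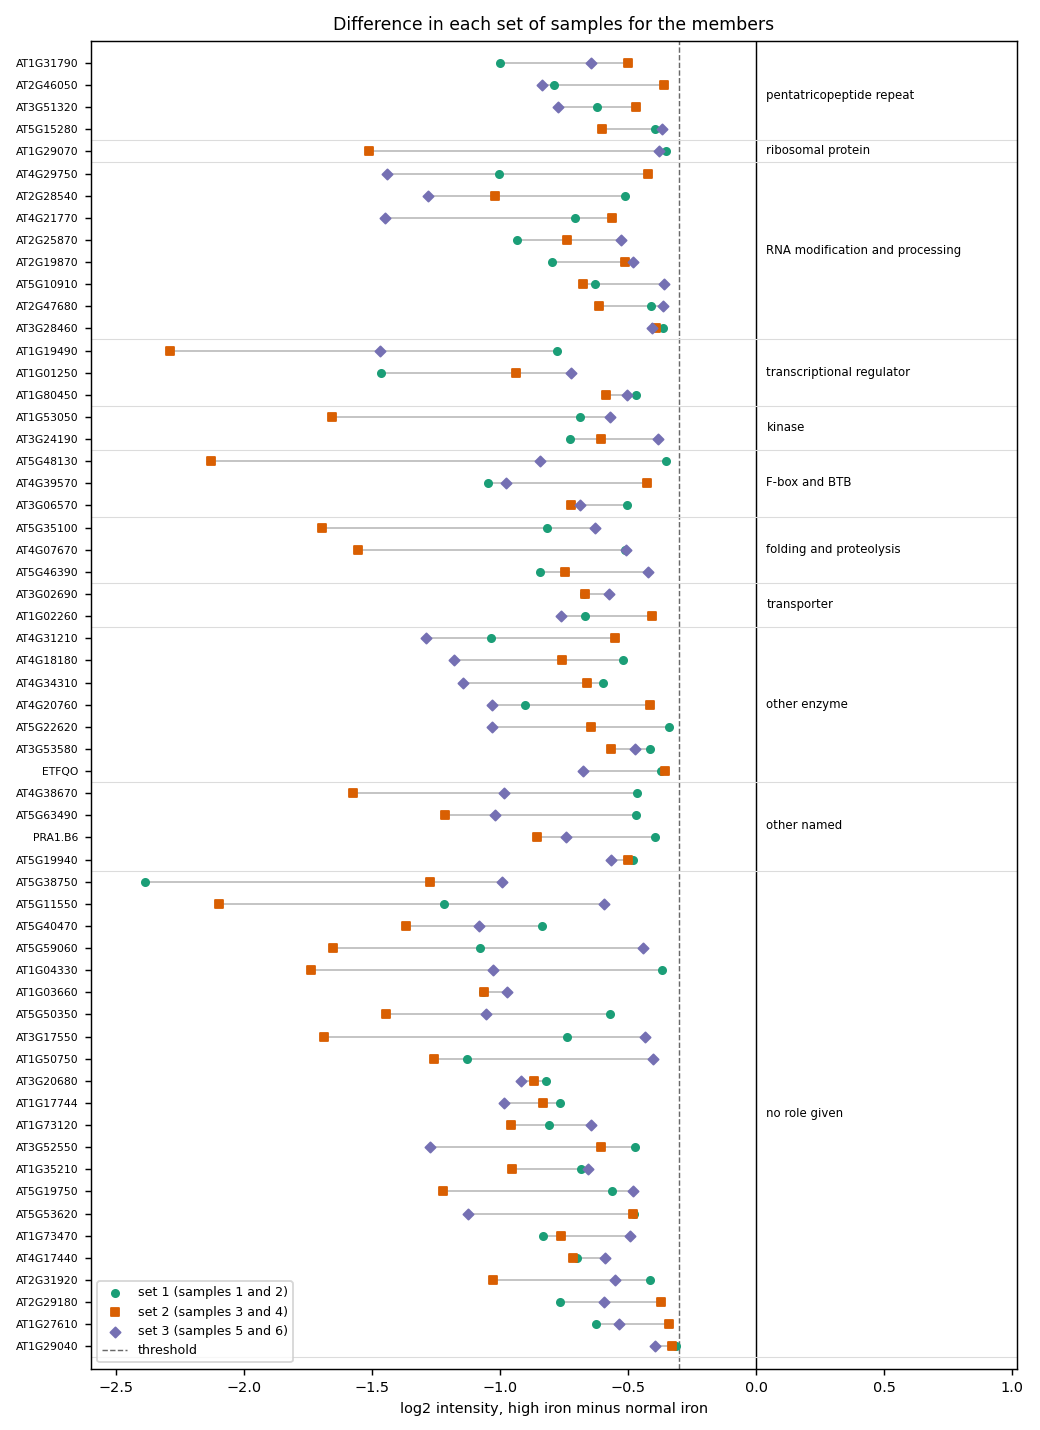
Log2 intensity of high iron minus normal iron for each of the 59 genes, with 1 point for each set of samples and the genes grouped by role. All points lie left of the dashed threshold at -0.3. The lowest values reach -2.39 in set 1, -2.29 in set 2 and -1.47 in set 3.

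The gene with the largest mean difference was AT5G38750. Its intensity was 0.538 at the lowest, 0.728 in the median and 0.874 at the highest in control samples, and 0.106, 0.317 and 0.465 in high iron samples. The difference was -2.39, -1.28 and -0.99 in the sets 1 to 3 (mean -1.55, SE 0.55). The groups did not overlap. At the lowest level were 2 of its high iron values, and with the lower level the difference was -3.11, with an adjusted p of 0.086 in limma over 12 samples. AT1G03660 was far more even. Its control values were 0.865, 0.995 and 1.12 (lowest, median and highest) and its high iron values 0.430, 0.478 and 0.553. The set differences of -1.07, -1.06 and -0.98 gave a mean of -1.03 (SE 0.13), with no overlap of the groups.

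AT1G17744 showed the same evenness at a smaller size. It stood between 0.956 and 1.21 in control samples, with a median of 1.12, and between 0.521 and 0.746 in high iron samples, with a median of 0.594. Its set differences were -0.77, -0.83 and -0.98 (mean -0.86, SE 0.12). AT3G20680 differed by -0.82, -0.87 and -0.92, with control values of 0.420 to 0.582 and high iron values of 0.199 to 0.375. In AT1G73120 the control values were 0.259 to 0.382 and the high iron values 0.159 to 0.216, and the set differences were -0.81, -0.96 and -0.65 (mean -0.80, SE 0.11). AT1G35210, with a mean of -0.77 (SE 0.19), had 0.344 to 0.479 in control and 0.199 to 0.290 in high iron samples. None of these 4 genes had groups that overlapped.

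AT5G40470 and AT5G11550 were lower by more in set 2 than in the other sets. AT5G40470 had control values of 0.749, 1.24 and 1.60 (lowest, median and highest) and high iron values of 0.420, 0.485 and 0.708. Its control samples 1 and 2 were the dimmest of the group, and its set differences were -0.84, -1.37 and -1.08. AT5G11550 had set differences of -1.22, -2.10 and -0.60, with 0.443 to 0.925 in control and 0.163 to 0.419 in high iron samples. Both genes kept the groups apart.

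**Figure D2:**
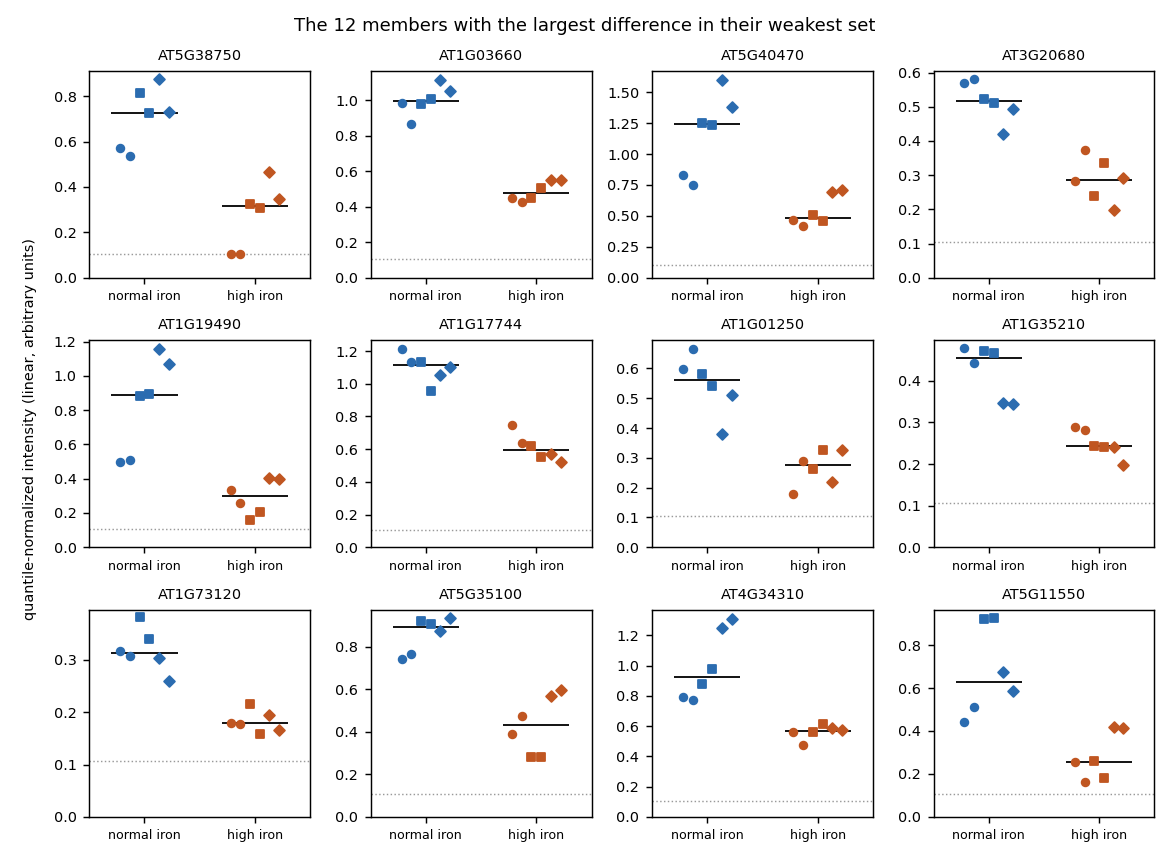
Quantile-normalized intensity per sample of the 12 genes with the largest difference in their weakest set, at normal iron (blue) and high iron (orange). Circles, squares and diamonds are the sets 1, 2 and 3, bars are group medians and the dotted line is the lowest level of 0.106. In all 12 genes every high iron sample lies below every control sample.

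Among transcriptional regulators, AT1G19490, of the bZIP family, differed by -1.51 (SE 0.43). Its control samples 1 and 2 stood at 0.497 and 0.509, samples 3 and 4 at 0.884 and 0.892, and samples 5 and 6 at 1.16 and 1.07. Its high iron samples stood at 0.333 and 0.259, at 0.160 and 0.206, and at 0.402 and 0.40. The groups did not overlap, and the difference was least in set 1 (-0.78) and largest in set 2 (-2.29). AT1G01250, a gene of the ERF family of DNA-binding proteins, had 0.381, 0.560 and 0.667 in control and 0.180, 0.276 and 0.327 in high iron samples (lowest, median and highest). Its difference was -1.04 (SE 0.20) and was largest in set 1, at -1.47. AT1G80450 codes for a protein with a VQ motif, found in partners of transcription factors. It differed by -0.47, -0.59 and -0.51 (mean -0.52, SE 0.09), with control values of 0.822 to 0.969 and high iron values of 0.510 to 0.688. It left the threshold with median scaling, and its mean was -0.22 (adjusted p = 0.096 in limma) once a running median over neighbouring probe numbers was removed.

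The 4 genes of pentatricopeptide repeat proteins had a median difference of -0.64, and in 3 of them the groups did not overlap. AT1G31790 had 0.704, 0.809 and 0.883 in control and 0.386, 0.491 and 0.561 in high iron samples, with set differences of -1.0, -0.50 and -0.65 (mean -0.72, SE 0.14). AT2G46050 had 0.720 to 1.14 in control and 0.431 to 0.666 in high iron samples, and its difference was -0.66 (SE 0.21). AT5G15280 had 0.848 to 1.09 and 0.579 to 0.827, and its difference was -0.45 (SE 0.11). In these 3 genes every high iron sample was below every control sample.

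AT3G51320, the remaining repeat gene, was dim. Its control values were 0.148 to 0.277, and 4 of its 6 high iron values were at the lowest level, with the other 2, in samples 3 and 4, at 0.190 and 0.204. The mean difference of -0.62 (SE 0.33) is therefore limited by that level, and the groups overlapped. The plastid ribosomal protein gene AT1G29070 was also dim, with 0.278 to 0.357 in control and 0.106 to 0.310 in high iron samples. Its set differences were -0.35, -1.51 and -0.38, and the 2 values at the lowest level were high iron samples 3 and 4. With the lower level its mean was -2.31 in place of -0.75.

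The 8 genes for enzymes and binding proteins of RNA had a median difference of -0.67, and 5 of them separated the groups. AT4G29750, of the CRM domain family that acts in organelle intron splicing, had the largest mean, -0.96 (SE 0.23). It stood at 0.283, 0.448 and 0.491 in control and at 0.162, 0.217 and 0.290 in high iron samples. Its lowest control sample was dimmer than its brightest high iron sample, so the groups overlapped. AT2G28540, which codes for a protein with an RNA-binding motif, had 0.734 to 1.82 in control and 0.513 to 0.718 in high iron samples (mean -0.94, SE 0.30). AT4G21770, of the pseudouridine synthase family, which converts uridines within RNA, differed by -0.71, -0.57 and -1.45 (mean -0.91, SE 0.24). Its control values of 0.605 to 0.838 lay above the high iron values of 0.301 to 0.516.

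AT2G25870 codes for a protein related to YbeY, which trims ribosomal RNA in bacteria such as Escherichia coli. It had 0.656 to 1.42 in control and 0.550 to 0.768 in high iron samples, with a difference of -0.73 (SE 0.22). Its control samples 1 and 2 were the brightest and control sample 5 overlapped the high iron range. The methyltransferase gene AT2G19870, of the SpoU family that acts on tRNA and ribosomal RNA, had 0.840 to 1.07 in control and 0.566 to 0.759 in high iron samples (mean -0.60, SE 0.13). AT5G10910, of the MraW family of ribosomal RNA methyltransferases, had 0.724 to 0.895 and 0.466 to 0.642 (mean -0.56, SE 0.12). In both genes the groups lay apart.

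AT2G47680, of a zinc finger helicase family, differed by -0.46 (SE 0.14), with 0.510 to 0.624 in control and 0.289 to 0.455 in high iron samples. AT3G28460, of another methyltransferase family, showed how the level of a set was shared by both groups. Its control samples 1 to 6 stood at 0.452, 0.406, 0.567, 0.532, 0.704 and 0.664, and its high iron samples 1 to 6 at 0.356, 0.310, 0.372, 0.472, 0.505 and 0.526. In both groups set 1 was lowest and set 3 highest, the groups overlapped, and the differences of -0.37, -0.39 and -0.41 were nearly equal. With neighbouring probe numbers removed, however, they were 0.00, 0.02 and -0.14, outside the threshold, and the mean was -0.15 (adjusted p = 0.38 in limma). The 4 probes nearest to it in number had a median difference of -0.79.

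**Figure D3:**
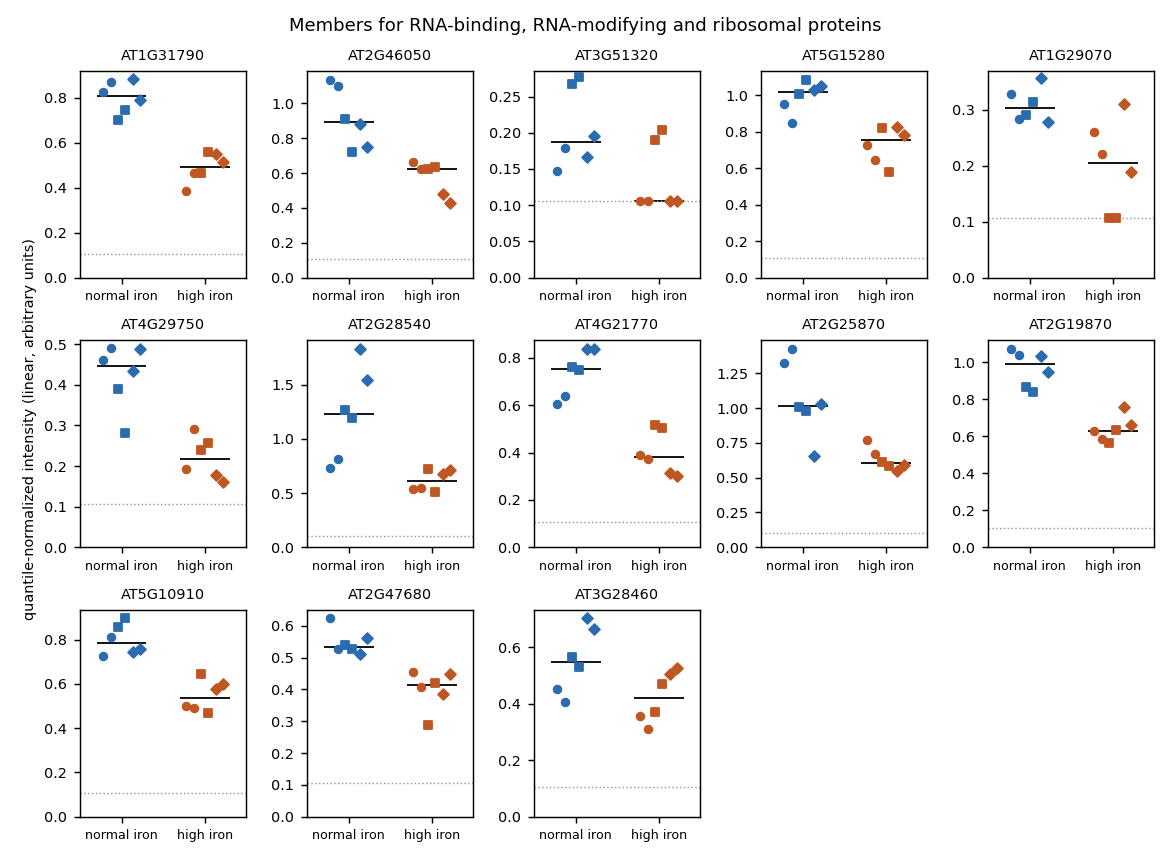
Quantile-normalized intensity per sample of the 13 genes for pentatricopeptide repeat, ribosomal, RNA-binding and RNA-modifying proteins, at normal iron (blue) and high iron (orange). Circles, squares and diamonds are the sets 1, 2 and 3, bars are group medians and the dotted line is the lowest level of 0.106. AT3G51320 and AT1G29070 have 4 and 2 high iron values at that level.

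Of the 3 genes for folding and proteolysis, each separated the groups. AT5G35100, which codes for a cyclophilin, a peptidyl-prolyl isomerase, had 0.745, 0.892 and 0.934 in control and 0.281, 0.431 and 0.597 in high iron samples. Its set differences were -0.82, -1.70 and -0.63 (mean -1.05, SE 0.29). AT4G07670, with a protease-associated domain, differed by -0.51, -1.56 and -0.51, so that set 2 made most of its mean of -0.86 (SE 0.35). AT5G46390, of a family of carboxyl-terminal processing peptidases, had 0.963 to 1.10 in control and 0.568 to 0.785 in high iron samples (mean -0.67, SE 0.12).

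The 3 genes for substrate adaptors of protein degradation and related BTB proteins had a median of -0.82. AT5G48130, of the family of the phototropin partner NPH3, had 0.349 to 0.475 in control and 0.106 to 0.328 in high iron samples, with -2.13 in set 2 where both high iron values were at the lowest level. Its difference was -0.35 in set 1, and its mean was -1.11, or -2.67 with the lower level. The F-box kelch repeat genes AT4G39570 and AT3G06570 differed by -0.82 (SE 0.23) and -0.64 (SE 0.21). The groups of AT4G39570 lay apart, and those of AT3G06570 overlapped.

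Kinases gave 2 genes, and in both the groups overlapped. AT1G53050, of the protein kinase family, had 0.849, 1.25 and 1.57 in control and 0.329, 0.538 and 1.07 in high iron samples (mean -0.97, SE 0.43). AT3G24190, of the ABC1-like kinases, which occur in plastids and mitochondria, had 0.369 to 0.506 and 0.189 to 0.383 (mean -0.57, SE 0.19). Of the 2 transporter genes, AT1G02260, of a divalent ion symporter family, had 0.973 to 1.33 in control and 0.586 to 0.924 in high iron samples, with no overlap (mean -0.61, SE 0.16). With median scaling its set differences were -0.44, -0.03 and -0.57, outside the threshold, and its mean was -0.34 (adjusted p = 0.10 in limma). AT3G02690, of the EamA-like transporters, differed by -0.67, -0.67 and -0.57 while its groups overlapped. With neighbouring probe numbers removed its set differences were -0.23, -0.29 and -0.38, outside the threshold, and its mean was -0.36 (adjusted p = 0.15 in limma).

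The 7 genes of other enzymes had a median of -0.78, and 6 separated the groups. AT4G31210, a type IA DNA topoisomerase, had 0.364 to 0.573 in control and 0.199 to 0.336 in high iron samples (mean -0.96, SE 0.19). AT4G18180, of the pectin lyase-like family, had 0.602 to 0.850 and 0.339 to 0.550 (mean -0.82, SE 0.16). AT4G34310, of the alpha/beta-hydrolases, had 0.770 to 1.31 and 0.476 to 0.613 (mean -0.80, SE 0.20). All 3 had groups that lay apart.

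ETFQO (AT2G43400) codes for the oxidoreductase that passes electrons from electron-transfer flavoprotein to ubiquinone in mitochondria, in the breakdown of branched-chain amino acids. It stood at 0.640, 0.665 and 0.763 in control and at 0.444, 0.502 and 0.536 in high iron samples (mean -0.47, SE 0.12). AT3G53580, the diaminopimelate epimerase of lysine synthesis, was among the dimmest genes. It had 0.143 to 0.183 in control and 0.106 to 0.126 in high iron samples, with 3 values at the lowest level, and its mean of -0.49 (SE 0.06) was -1.42 with the lower level. AT5G22620, of the phosphoglycerate mutase family, differed by -0.34, -0.65 and -1.03. AT4G20760, of a family of NAD(P)-binding proteins, differed by -0.78 (SE 0.34) and was the enzyme gene whose groups overlapped.

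Among the remaining genes with a known family, AT4G38670, related to the sweet and defence protein thaumatin, had 0.545, 0.611 and 0.691 in control and 0.171, 0.309 and 0.429 in high iron samples. Its difference was -1.01 (SE 0.26). PRA1.B6 (AT5G07110), a prenylated RAB acceptor of vesicle traffic, had 0.976 to 1.23 and 0.502 to 0.863 (mean -0.66, SE 0.16). Both kept the groups apart, whereas AT5G63490, with CBS and PB1 domains, did not (mean -0.90, SE 0.38).

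AT5G19940, of the fibrillins, which coat lipid bodies and membranes in plastids, was marked by the sample numbered 3. Control samples 1 to 6 stood at 0.394, 0.376, 1.26, 0.483, 0.369 and 0.467, and high iron samples 1 to 6 at 0.291, 0.260, 0.918, 0.329, 0.244 and 0.322. Sample 3 was the highest of each group by a wide margin, so the groups overlapped although each same-numbered pair was lower at high iron. The set differences were -0.48, -0.50 and -0.57, with an SE of 0.41 that reflects this spread between samples.

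The other 14 genes without a given role that have not been described had mean differences between -0.35 and -1.06. Among them, AT5G59060 (-1.06, SE 0.32), AT1G04330 (-1.05, SE 0.34) and AT5G50350 (-1.03, SE 0.26) separated the groups. The size of AT1G04330 rests on 1 high iron value at the lowest level, and with the lower level it was -1.83 (adjusted p = 0.17 in limma). AT5G59060 was at -0.70 with neighbouring probe numbers removed. Just inside the threshold lay AT1G29040, AT1G27610 and AT5G22620, with weakest set differences of -0.31, -0.34 and -0.34. AT1G29040 was dim, and with its 4 high iron values at the lower level its mean was -1.96. Just outside lay AT1G53260, AT2G36560 and AT3G57570, each with a weakest set difference of -0.297 and with means of -0.56, -0.53 and -0.64. Their means were as large as those of many genes inside.

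In limma over 12 samples, 54 of the 59 genes had lower values at an adjusted p under 0.05, where 15.2% of all probes did. Over the 6 averages, 4 of the 59 did, where 1.08% of all probes did. These were AT1G03660, AT1G17744, AT1G73120 and AT3G53580. With the samples of a set within each group as a random block 24 did, where 6.05% of all probes did. Using the replicate number as a block, 58 did, where 18.4% of all probes did. With that block over the averages 0 of the 59 did in limma, where 0.0291% of all probes did. At an unadjusted p under 0.05 that fit had 57 of the 59 lower and 13.3% of all probes. The fits use the contrast that chose the genes, so nothing is read from these counts.

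All 59 genes were lower under each scaling of the arrays, but the sizes moved. After median scaling the median difference was -0.75, where that of all probes was 0.02, and 49 of the 59 stayed below -0.3 in all 3 sets, beside 8.46% of all probes. With deposited values it was -1.24, where that of all probes was -0.40 and 73.9% of all probes were below 0. All 59 were then below -0.3 in every set, beside 32.7% of all probes. AT5G15280 had the smallest difference after median scaling, -0.24. Outside the genes for RNA-binding, RNA-modifying and ribosomal proteins, AT1G53050, AT1G80450, AT5G46390, AT1G02260, PRA1.B6, ETFQO and AT1G29040 left the threshold with that scaling. Among the 13 genes for RNA-binding, RNA-modifying and ribosomal proteins, AT5G15280, AT2G46050 and AT5G10910 left the threshold with median scaling. More of these 13 left it once neighbouring probe numbers were removed: AT2G46050, AT5G15280, AT3G51320, AT2G28540, AT2G19870, AT2G47680 and AT3G28460.

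**Figure D4:**
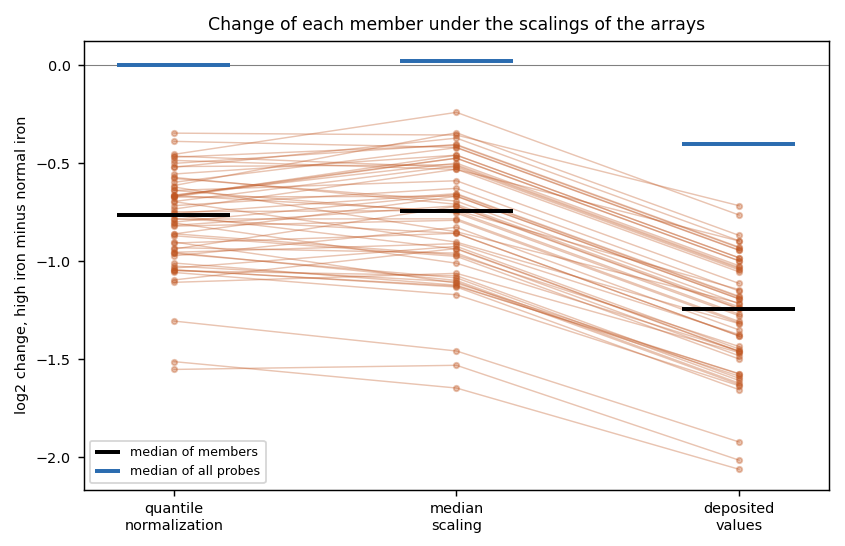
Log2 change of each of the 59 genes (orange points joined by lines) with quantile normalization, median scaling and deposited values. Black bars mark the median of the genes, -0.77, -0.75 and -1.24, and blue bars that of all probes, 0.00, 0.02 and -0.40.

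Brightness differed between the 59 genes and the 637 single-gene probes open to selection. By control level, 22 of the 59 (37.3%) lay between the 75th and the 90th percentile of all probes, against 16.6% of those 637, and 4 (6.78%) in the dimmest 25 percent, against 28.4%. The control values enter both this level and the difference that chose the genes, so these shares follow in part from the rule. Values at the lowest level occurred in 8 of the 59 genes at high iron and in 0 at normal iron. Of these values 8 were in high iron samples 3 and 4 and 11 in the other 4. That they occurred only at high iron follows in part from the rule, which asks for lower values there. A dim probe cannot pass the threshold in a set where its control average is less than 0.3 above the lowest level on the log2 scale.

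Probes with near numbers moved with several of the genes. For each gene the median difference of the 4 probes nearest in number was taken. Its own median was -0.12 over the 59 genes and 0.01 over all probes. It was below -0.3 for 15 of the 59 (25.4%), against 13.5% of all probes. AT5G63490, AT2G28540, AT1G53050 and AT1G04330 had the lowest, at -0.97, -0.95, -0.85 and -0.84. AT1G04330, AT5G63490 and AT2G28540 have numbers within 3 of each other, and 15 of the 59 have another of the genes within 5. Where the probes sat on the array is not stated in the labels or files, and the part of position in these differences was not tested. After a running median over 21 neighbouring numbers was removed, 39 of the 59 stayed below -0.3 in all 3 sets, beside 10.3% of all probes. These included all 12 genes with the largest difference in their weakest set. AT5G63490, AT2G28540, AT1G53050 and AT1G04330 did not stay. The differences of 19 of the 59 moved by over 1.5 times. In limma over 12 samples 48 of the 59 were then called lower, where 17.5% of all probes were. The calls of 8 genes ended, AT3G02690, AT1G53050, AT5G19750, AT1G80450, AT5G63490, AT3G24190, AT5G15280 and AT5G22620, with means between -0.56 and -0.16.

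**Figure D5:**
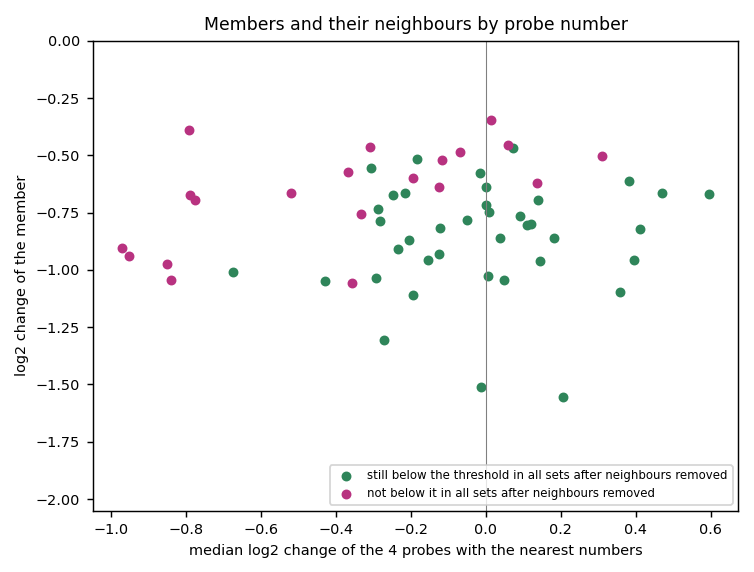
Log2 change of each of the 59 genes against the median log2 change of the 4 probes with the nearest numbers. Green marks the 39 genes that stayed below -0.3 in all sets once a running median over neighbouring numbers was removed, and magenta the other 20, among them those at the far left.

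Probes annotated with several genes gave a further reading for 3 of the 59. For AT5G46390 a probe shared with 2 other genes differed by -0.41, -0.10 and -0.70 in the sets (mean -0.40, log2 SE over 12 samples 0.14). For AT4G17440 a probe shared with 1 other gene differed by 0.09, -0.68 and -0.28, beside -0.70, -0.72 and -0.59 on its own probe. For AT4G38670 a probe shared with 2 other genes was higher at high iron in every set, by 0.76, 1.05 and 0.79, opposite to its own probe. Which gene a shared probe reports cannot be told from these values. On the chromosomes, AT1G29040 and AT1G29070 were the closest of the genes, with 3 protein-coding genes between them.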

How the data were processed

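Total RNA of 12 samples was measured on arrays with 1 value per probe. The authors deposited intensities on a linear scale from 0 to 100. No label states scanner, background correction or scaling, so centring stays unknown and direction is that of the labels. Groups came from source names and replicate numbers from titles. Of 3439 probes, 692 had 1 gene, 870 several and 1877 none in the platform annotation, which can be old. For 690 of the 692, symbols were updated from the gene table of assembly TAIR10.1. That table gives no descriptions of function, so the planned annotation classes were replaced by family names from general knowledge. Sequences were not used here.

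Intensities were quantile normalized, floored at the 5th percentile of positive values (0.106) and log2 transformed, so changes of dim probes are understated. Changes were fitted with limma 3.58.1 in R 4.3.3 (eBayes with trend, two-sided, Benjamini-Hochberg over all probes, threshold 0.05). The fit was also run on simulated data, in which samples of a set were less alike than in these data (correlation 0.77). That run therefore cannot vouch for the calls over 12 samples. P-values measure only how these samples vary, possibly for technical reasons, and the number of arrays limits the precision.

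The members and lists were chosen with earlier results of these data known. Named were the 12 genes with the largest weakest difference, up to 3 per role group and the 3 nearest the threshold on either side. Others with a known family, and those singled out for values at the lowest level, array neighbours or shared probes, were added after their values were seen. Alternatives were median scaling, deposited values, a lower floor, neighbouring probe numbers removed, 1 sample left out, set averages, random or replicate blocks, other thresholds and bright filters. Likeness across the 12 samples was not computed, because the samples form separate groups.

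Deviations of same-numbered samples correlated across the groups at 0.52, 0.51, 0.21, 0.13, 0.52 and 0.51 (numbers 1 to 6). Correlations of differently numbered samples across the groups are not given, so pairing by number cannot be told from sharing by set. Either link would come from the data, not the labels. Deviations within sets correlated between 0.56 and 0.82.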

Additional observations from a re-analysis of the deposited data

Results flagged for a closer look

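Of 118 groups of 6 values examined in the 59 genes, 5 held a sample far from the others, and chance gives about 1 in 20. In AT5G19940 sample 3 stood apart in both groups, at 1.26 in control samples, where the others reached 0.483, and at 0.918 in high iron samples, where the others reached 0.329. The gaps were 0.780 and 0.773 of the group's range on the log2 scale, which the gaps below use as well. In AT4G34310 high iron sample 2 stood at 0.476 and the others from 0.558 upward (gap 0.626). In AT1G04330 high iron sample 4 lay at the lowest level and the others from 0.215 upward (gap 0.645, which depends on the level that was set). In AT2G47680 high iron sample 3 stood at 0.289 and the others from 0.385 upward (gap 0.631).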

How the results depend on the processing

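All 59 genes kept their direction in 21 alternative fits. They were chosen for a fall in every set of the same data, so this follows largely from the choice. Of these fits 12 left out only 1 sample, and the averages and blocks leave the size of a change as it was. With deposited values 228 genes met the rule, the median difference was -1.24 and 1601 probes were called lower. It was -0.64 with neighbouring probe numbers removed and -0.70 without samples 3 and 4 of both groups, a choice made after seeing the data, in which 40 of the 59 were called lower (11.6% of all probes). Without those samples the calls of 16 genes ended, with means between -1.69 and -0.35. Among these were AT5G38750, AT5G40470, AT1G19490 and AT5G11550, which belong to the 12 genes with the largest difference in their weakest set. Below -0.5 in all sets lay 24 genes. With median scaling 51 of the 59 were called lower (12.7% of all probes). The calls of AT1G53050, AT4G07670, AT1G02260 and AT5G15280 ended, with means between -0.97 and -0.24. With the floor at the 1st percentile 49 of the 59 were called lower (14.7% of all probes). The calls of AT5G38750, AT3G53580, AT1G04330, AT1G29070, AT5G48130 and AT1G29040 ended, with changes of -3.11, -1.42, -1.83, -2.31, -2.67 and -1.96, each moved by over 1.5 times. A random block for the samples of a set within each group left 208 probes and 24 of the 59 called lower. Over the 6 averages 37 probes and 4 of the 59 were called lower. With the replicate block over the averages 1 probe and 0 of the 59 were called lower in limma, where 57 of the 59 and 13.3% of all probes were lower at an unadjusted p under 0.05. Over 12 samples the replicate block gave 633 probes and 58 of the 59. With 1 sample left out, between 54 and 63 genes met the rule, 53 to 58 of them among the 59, with a median difference between -0.78 and -0.75. Then 442 to 536 probes and 51 to 55 of the 59 were called lower. The calls of AT1G29070, AT3G52550, AT1G53050 and AT4G20760 ended in 10, 9, 5 and 2 of these 12 fits.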
